A study of Saccharomyces cerevisiae with 8 samples.

Results

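The genes described here are HSP12, HSP26, HSP42, HSP30, GRE1, SIP18 and DDR2, a set of small heat shock proteins, hydrophilins and related small stress proteins of the budding yeast Saccharomyces cerevisiae. They were chosen by name, with earlier results of these data known, so their contrasts with all tested genes are description only. On the array they were found through their open reading frames, YFL014W, YBR072W, YDR171W, YCR021C, YPL223C, YMR175W and YOL052C-A. All 7 had a probe among 6225 genes on the array, and all 7 were among the 5394 genes tested. SIP18 entered the test only through the salt-treated deletion cultures, the one group in which it was well above background on both arrays. GRE1 entered it only through the salt-treated cultures of both strains, so its salt calls are not independent of that filter.

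Single-colour arrays were hybridised with total RNA from 8 cultures in 4 groups of 2. The strain, named BY4147 in the labels, was used with HTZ1 intact or with HTZ1 deleted. HTZ1 encodes the histone variant H2A.Z, which replaces H2A in nucleosomes next to promoters. Exponential cultures in YPD were either unstressed or exposed to 0.4 M NaCl for 20 minutes. Each group has biological replicates according to the series design, while the labels do not say whether the deletion strain was 1 clone or several.

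HSP26 and HSP42 encode small heat shock proteins of the alpha-crystallin type, which bind unfolding proteins without using ATP and hand them to Hsp70 and the disaggregase Hsp104. HSP12, GRE1 and SIP18 encode small, very hydrophilic proteins that protect membranes or proteins when water is scarce. Salt activates the kinase Hog1, and it acts with the transcription factors Msn2 and Msn4, which bind stress response elements in promoters. Hsf1 is the main activator of chaperone genes on heat shock.

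Levels are given as relative signal, the processed spot intensity divided by the 75th percentile of that array, so that 1 equals this percentile. Different probes cannot be set against each other, so a level is compared only with the same gene's level in another group. Differences are on the log2 scale with limma's moderated standard error (SE). A gene counts as changed when its limma p, adjusted by Benjamini-Hochberg over all 5394 genes, is under 0.05. HTZ1 itself lay between 1.97 and 2.54 on the 4 wild-type arrays and between 0.00456 and 0.00823 on the 4 deletion arrays, where it was not well above background. The pair of arrays in each group had a Pearson r over genes between 0.987 and 0.993, where genes are not independent replicates. All arrays shared a slide with wild type in row 1, the deletion strain in row 2, unstressed cultures in columns 1 and 2 and salt in columns 3 and 4, so group and place on the slide cannot be told apart. A lower signal in these bulk RNA samples cannot be told apart from fewer cells with the transcript.

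**Figure D1:**
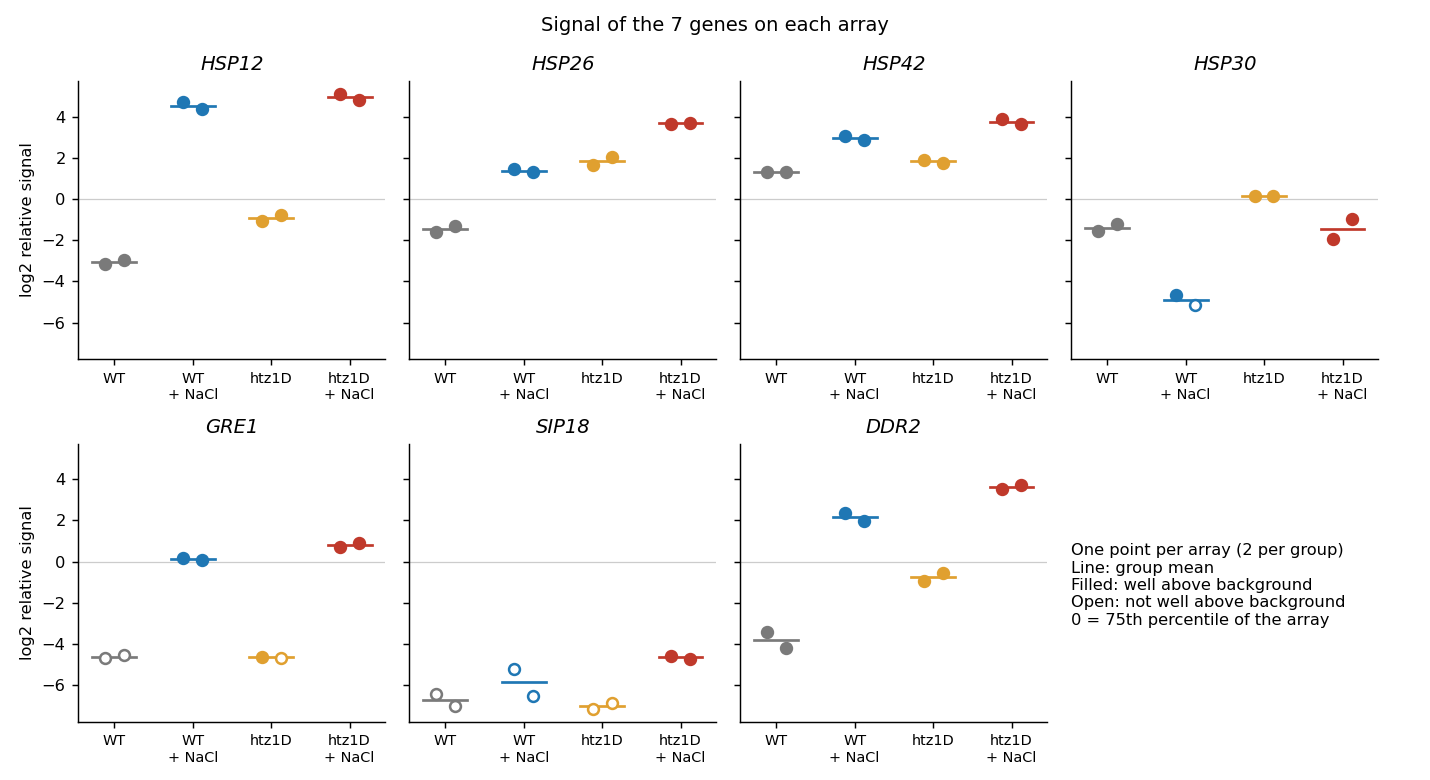
Log2 relative signal (vertical axis, 0 is the 75th percentile of the array) of the 7 genes on each of 8 arrays, in wild type (WT) and the htz1 deletion (htz1D) with and without NaCl. Points are arrays, lines are means of 2 arrays, and open points were not well above background. HSP30 is lowest in salt-treated wild type, while HSP12, HSP26, HSP42, GRE1, SIP18 and DDR2 are highest in the salt-treated deletion strain.

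In wild type, salt raised HSP12, HSP26, HSP42, GRE1 and DDR2, lowered HSP30, and left SIP18 near background. Thus 5 of 7 genes rose and 1 fell by limma, whereas 31.2% of all tested genes rose and 25.7% fell (56.9% in either direction). GRE1, counted here, was tested only on account of the salt-treated groups, and the 7 genes were chosen with earlier results of these data known. The median log2 difference was 2.82 over the 7 genes and 0.07 over all tested genes.

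Among the alpha-crystallin pair, HSP26 read 0.333 and 0.403 on the unstressed wild-type arrays and 2.71 and 2.48 after salt. Its salt arrays lay far above the unstressed ones, with a log2 difference of 2.82 (SE 0.16, limma adjusted p = 1.32e-05). HSP42, whose protein gathers misfolded proteins into deposits and is active without heat as well, read 2.45 and 2.49 before salt and 8.35 and 7.18 after it. It rose by less (1.65, SE 0.13, limma adjusted p = 4.67e-05). By size of the salt rise in wild type, HSP26 stood at rank 71 and HSP42 at rank 203 of 4949 genes that were well above background on all 4 arrays.

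HSP12, which encodes an unfolded protein that folds on membranes and stabilises them, gave the largest change of the 7. Unstressed wild-type arrays read 0.112 and 0.127, and salt arrays 26.1 and 20.5. The log2 difference of 7.60 (SE 0.18, limma adjusted p = 2.52e-07) put it at rank 2 of the 4949 ranked genes. DDR2, a small protein gene first found through its induction by DNA damage and raised by many stresses, read 0.094 and 0.0541 without salt and 5.12 and 3.91 with it. It rose by 5.97 (SE 0.27, limma adjusted p = 4.73e-06), at rank 7. Its unstressed arrays were the least alike of its groups, and on unstressed replicate 1 the 2 spots of the probe gave processed intensities of 515 and 262.

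The hydrophilins GRE1 and SIP18 are paralogs, and in wild type SIP18 was too dim for their salt responses to be compared. GRE1 read 0.0393 and 0.0429 in unstressed wild type, where neither array was well above background, and 1.15 and 1.07 after salt. In these processed signals the rise was at least 24.1-fold (fitted log2 difference 4.75, SE 0.12, limma adjusted p = 2.60e-07). This bound took the lowest signal well above background on unstressed replicate 1 and the probe's own signal on replicate 2. The 2 spots on unstressed replicate 1 gave processed intensities of 240 and 98.6. In the authors' deposited values the fitted log2 rise was only 2.92, so the bound does not hold there. SIP18 read 0.0116 and 0.0078 without salt and 0.0266 and 0.011 with salt, and was not well above background on any of these 4 arrays. Its groups overlapped, and the difference did not pass (0.85, SE 0.39, limma adjusted p = 0.0978). Without wild-type salt replicate 2 it did pass (1.49, limma adjusted p = 0.00401), and it did so as well in raw signals, with no background subtracted (0.48, limma adjusted p = 0.0435).

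HSP30 went the other way. It encodes a plasma membrane protein that restrains the proton pump Pma1 during stress, and it is no small heat shock protein of the alpha-crystallin type. Unstressed wild-type arrays read 0.337 and 0.433, against 0.0401 and 0.0283 after salt, the second of which was not well above background. The fall was 3.50 (SE 0.31, limma adjusted p = 8.37e-05). It rests on dim salt arrays, where the 2 spots of the probe gave processed intensities of 182 and 75.3 on replicate 1. On replicate 2 they gave 173 and 85.0. In the authors' deposited values the fall was smaller (−1.70), as was the rise of GRE1 (2.92), and in raw signals HSP30 was at −2.21. These 3 values passed as well.

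**Figure D2:**
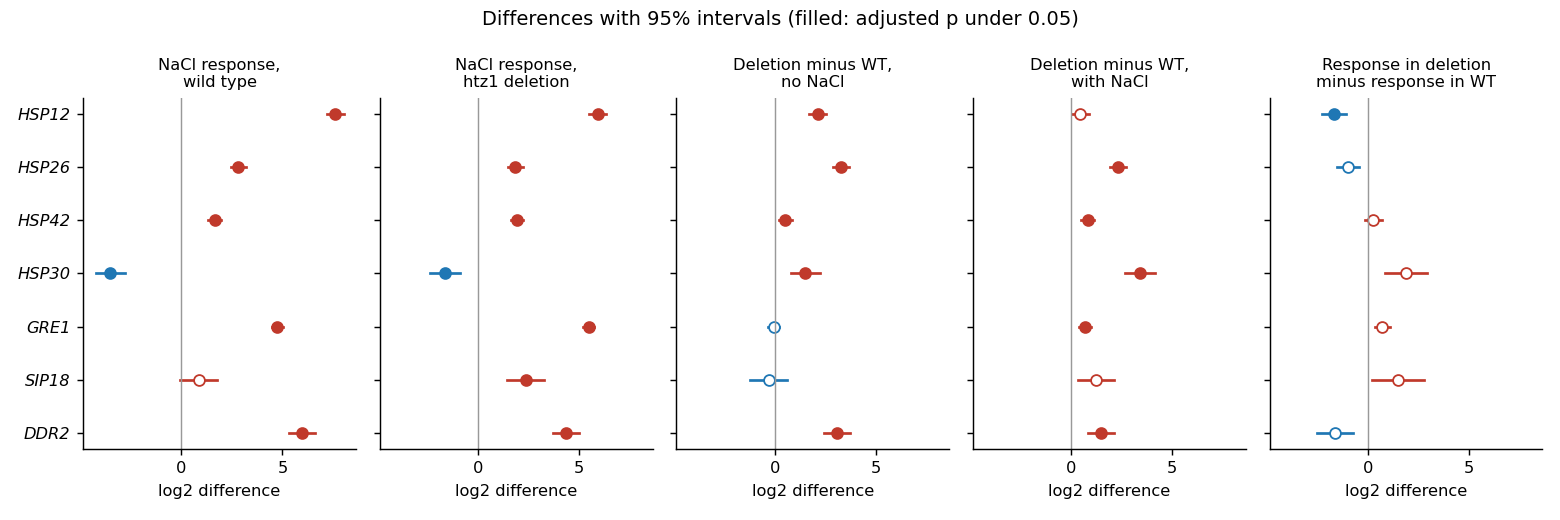
Log2 differences (horizontal axis) of the 7 genes in the 5 comparisons, with 95% intervals from limma's fit over 8 arrays. Filled points passed at an adjusted p under 0.05, red points lie above 0 and blue points below. HSP30 is the one gene of the 7 below 0 in both salt responses, and no gene called in either strain comparison lies below 0.

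In the deletion strain, salt raised HSP12, HSP26, HSP42, GRE1 and DDR2 and lowered HSP30 by limma, while 29.3% of all tested genes rose and 29.1% fell (58.4% in either direction). SIP18 is left out of this count, because it was tested only on account of its level in the salt-treated deletion cultures. GRE1 is kept in the count and in the median, though it was tested only on account of the salt-treated groups of both strains. The median log2 difference was 3.14 over the other 6 genes and 0.01 over all tested genes. No array is shared between the salt responses of the strains.

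HSP12 read 0.469 and 0.58 on the unstressed deletion arrays and 34.6 and 28.4 after salt, a rise of 5.91 (SE 0.18, limma adjusted p = 7.86e-07). DDR2 read 0.53 and 0.684 and then 11.7 and 13.1, a rise of 4.36 (SE 0.27, limma adjusted p = 1.28e-05). Both genes were well above background on all 8 arrays. HSP26 went from 3.11 and 4.11 to 12.6 and 13.1 (1.85, SE 0.16, limma adjusted p = 6.52e-05). HSP42 went from 3.74 and 3.41 to 14.6 and 12.6 (1.92, SE 0.13, limma adjusted p = 1.83e-05). Of 4999 genes ranked in this strain, HSP12 stood at rank 6, DDR2 at 22, HSP42 at 150 and HSP26 at 162 from the top, so the alpha-crystallin genes lay close together here.

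GRE1 read 0.0408 and 0.0389 without salt, the second not well above background, and 1.66 and 1.89 with it. It rose by 5.47 (SE 0.12, limma adjusted p = 4.03e-07), or by 3.63 in the authors' deposited values. SIP18, the hydrophilin known to protect cells that dry out, read 0.00699 and 0.00862 without salt and 0.0421 and 0.0376 with it. Only the salt arrays were well above background, and the gene was tested only on account of them, so no call is read from it. The bound on its rise in these processed signals was 1.05-fold, beside a fitted difference of 2.36 (SE 0.39). That fitted value rests on the dim unstressed arrays, and it was 0.48 in the authors' deposited values, 0.79 in raw signals and −0.25 under normexp. HSP30 read 1.09 and 1.11 before salt and 0.257 and 0.502 after it. It fell by 1.62 (SE 0.31, limma adjusted p = 0.00347), and the salt replicates of this gene lay further apart than its unstressed ones.

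**Figure D3:**
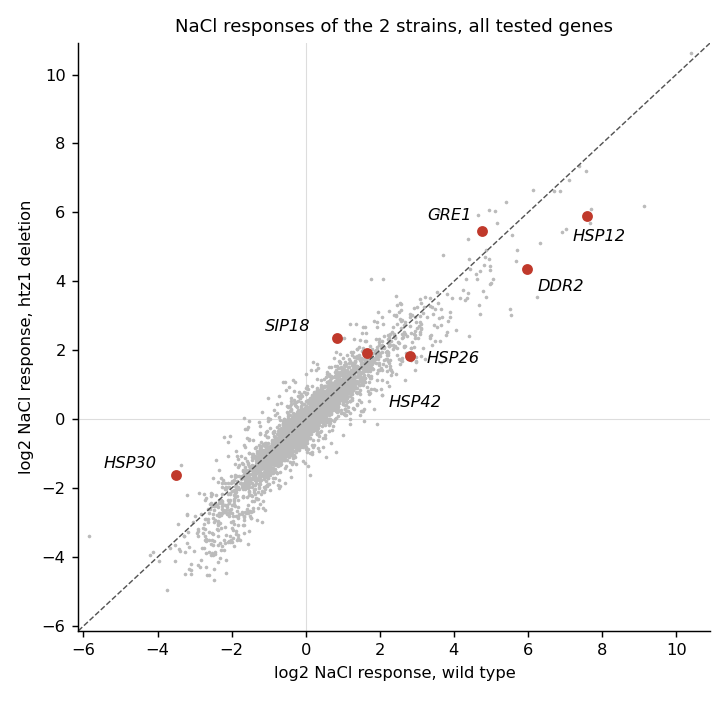
Log2 NaCl response in wild type (horizontal axis) against that in the htz1 deletion (vertical axis) for 5394 tested genes (grey), with the 7 genes in red and the line of equal response dashed. HSP12 (7.60 and 5.91), DDR2 (5.97 and 4.36) and HSP26 (2.82 and 1.85) lie below the line, and HSP30 (−3.50 and −1.62), GRE1, SIP18 and HSP42 above it.

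Without salt, the deletion strain had more HSP12, HSP26, HSP42, HSP30 and DDR2 transcript than wild type, while GRE1 and SIP18 did not pass. By limma 5 of 7 genes were higher and 0 lower, whereas 7.36% of all tested genes were higher and 6.32% lower (13.7% in either direction). The median log2 difference was 1.53 over the 7 genes and −0.04 over all tested genes. This comparison shares its wild-type arrays with the salt response of wild type, so the values of both are given side by side only.

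HSP26 was higher by a log2 difference of 3.29 (SE 0.16, limma adjusted p = 0.000111). Its unstressed deletion arrays (3.11 and 4.11) lay above the salt-treated wild-type arrays (2.71 and 2.48), a pair of groups that was not tested. DDR2 was higher by 3.08 (SE 0.27, limma adjusted p = 0.000906), or by 1.96 in the authors' deposited values. HSP12 was higher by 2.13 (SE 0.18, limma adjusted p = 0.000851). HSP26 and DDR2 stood at ranks 2 and 3 of 4945 genes measured in both strains, HSP12 at rank 18 and HSP30 at rank 41. For HSP12 and DDR2, unlike HSP26, both unstressed deletion arrays stayed below both salt-treated wild-type arrays.

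HSP30 was higher in the unstressed deletion strain by 1.53 (SE 0.31, limma adjusted p = 0.0215), and HSP42 by 0.53 (SE 0.13, limma adjusted p = 0.0381). For both genes the calls rested on all unstressed arrays. Without wild-type unstressed replicate 1 or 2, HSP30 was at 1.34 or 1.71, and without deletion unstressed replicate 1 or 2 at 1.54 or 1.51, and it passed in none of these fits. HSP42 did not pass in them either (0.52, 0.54, 0.46 and 0.60), nor without deletion salt replicate 1 or 2 (0.53 each), under normexp (0.46) or with no filter on dim probes (0.53). With any 1 unstressed array left out, fewer of the 7 genes were called than with all arrays, and fewer of all tested genes as well. GRE1 was at −0.04 (SE 0.12, 95% interval −0.32 to 0.23, limma adjusted p = 0.839), with 1 of 4 unstressed arrays well above background. SIP18, dim on all 4, was at −0.29 (SE 0.39, 95% interval −1.20 to 0.62, limma adjusted p = 0.659).

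With salt, HSP26, HSP42, HSP30, GRE1 and DDR2 were higher in the deletion strain than in wild type, and HSP12 and SIP18 did not pass. Again 5 of 7 were higher by limma and 0 lower, against 5.77% of all tested genes that were higher and 16.2% that were lower (21.9% in either direction). Among all called genes 311 were higher and 872 lower, or 424 and 564 with quantile scaling and 549 and 627 in the authors' deposited values. The median log2 difference was 1.22 over the 7 genes, 1.14 without SIP18 and −0.07 over all tested genes.

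HSP30 was higher by 3.41 (SE 0.31, limma adjusted p = 0.00103), or by 1.71 in the authors' deposited values and 2.18 in raw signals, and 1 of its 2 salt-treated wild-type arrays was not well above background. Its salt-treated deletion arrays (0.257 and 0.502) lay on both sides of the unstressed wild-type arrays (0.337 and 0.433). HSP26 was higher by 2.31 (SE 0.16, limma adjusted p = 0.000464), rank 3 of 5124 genes measured on these 4 arrays. DDR2 was higher by 1.46 (SE 0.27, limma adjusted p = 0.0105), HSP42 by 0.81 (SE 0.13, limma adjusted p = 0.00673) and GRE1 by 0.68 (SE 0.12, limma adjusted p = 0.00872). On the log2 scale the gap between the nearest arrays of the strains was only 0.53 for GRE1 and 0.59 for HSP42.

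HSP12, so different between the unstressed strains, differed little after salt: 0.44 (SE 0.18, 95% interval 0.02 to 0.86, limma adjusted p = 0.123), with both deletion arrays above both wild-type arrays. It passed in the authors' deposited values (0.45, limma adjusted p = 0.022). SIP18 was at 1.22 (SE 0.39, limma adjusted p = 0.0618). It was well above background on both deletion arrays and neither wild-type array, and the bound on the difference in these processed signals was 1.21-fold. Its fitted value was 1.48 under quantile scaling, 0.36 in the authors' deposited values and 1.85 without wild-type salt replicate 1, where it passed, but it was tested only through this group and no call is read from it. Without wild-type salt replicate 2, GRE1 (0.63) and DDR2 (1.27) did not pass, nor did they without deletion salt replicate 2 (0.58 and 1.38). HSP42 did not pass without deletion salt replicate 1 (0.70), and GRE1 did not under normexp, another background correction (0.68, limma adjusted p = 0.432).

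**Figure D4:**
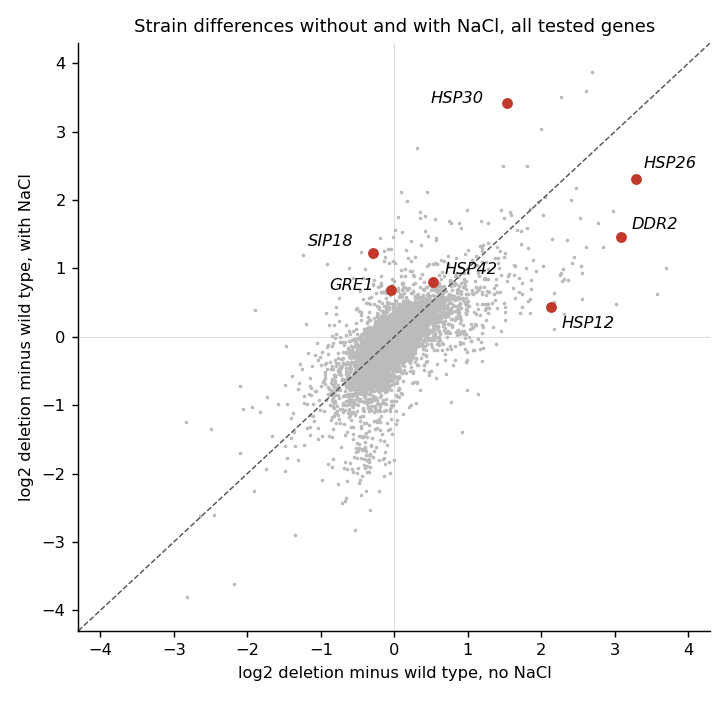
Log2 difference of deletion minus wild type without NaCl (horizontal axis) and with NaCl (vertical axis) for the tested genes (grey), with the 7 genes in red and the line of equal difference dashed. HTZ1 lies beyond the plotted range. HSP12 moves from 2.13 without salt to 0.44 with salt and HSP30 from 1.53 to 3.41, and these axes share no array. The interaction did not pass for HSP30 (1.89, limma adjusted p = 0.129), and 1 of its 2 salt-treated wild-type arrays was not well above background.

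Whether the strains responded differently to salt was tested by the interaction, which subtracts the wild-type log2 response from that of the deletion strain. It passed for HSP12, whose response was smaller in the deletion strain by a log2 difference of −1.69 (SE 0.25, limma adjusted p = 0.0368). The other 6 genes did not pass. Of all tested genes 1.00% passed, 0.890% with a lower and 0.111% with a higher value. The HSP12 call was lost without wild-type unstressed replicate 1 (−1.59) or 2 (−1.78), wild-type salt replicate 2 (−1.86), deletion unstressed replicate 1 (−1.84) or 2 (−1.53) and deletion salt replicate 1 (−1.83) or 2 (−1.54), with limma adjusted p from 0.0579 to 0.13. It was also lost under normexp (−1.47), with no filter on dim probes (−1.69) and in raw signals (−1.35), while it passed in the authors' deposited values (−1.09). The HSP12 difference between strains was 2.13 without salt and 0.44 with salt. These values make up the interaction and are no separate test of it.

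DDR2 (−1.61, SE 0.38, 95% interval −2.51 to −0.71, limma adjusted p = 0.132) and HSP26 (−0.98, SE 0.23, 95% interval −1.52 to −0.43, limma adjusted p = 0.132) had values below 0 as well. HSP30 (1.89, SE 0.45, limma adjusted p = 0.129), GRE1 (0.72, SE 0.17, limma adjusted p = 0.125) and SIP18 (1.51, SE 0.55, limma adjusted p = 0.313) had values above 0, and for all 3 some arrays were not well above background. SIP18 was well above background in 1 of the 4 groups that enter its value. HSP42 was at 0.28 (SE 0.19, 95% interval −0.16 to 0.71, limma adjusted p = 0.665). In the authors' deposited values DDR2 was at −0.57 and HSP30 at 0.40, and neither passed.

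Ordered by level, HSP12, HSP42 and DDR2 ran from unstressed wild type through the unstressed deletion strain and salt-treated wild type to the salt-treated deletion strain. The middle pair of groups was not tested, and for HSP12 the last pair did not pass by limma. HSP26 had the middle groups exchanged. HSP30 was lowest in salt-treated wild type and highest in the unstressed deletion strain, with the other two groups overlapping between them. GRE1 had overlapping unstressed groups, then salt-treated wild type, then the salt-treated deletion strain. In SIP18 the unstressed wild-type arrays overlapped those of the unstressed deletion strain and of salt-treated wild type, and the salt-treated deletion strain lay above all of them.

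Profiles over the 8 arrays were compared by the Euclidean distance between log2 values, each centred on its own mean. Genes nearest to HSP12 were SOL4, an enzyme gene of the pentose phosphate pathway (distance 0.81), FMP45 (1.15) and the glycerol phosphatase gene GPP2 (1.27). FMP45 was well above background on 4 of 8 arrays. SPG4 (0.78), the secreted glycoprotein gene YGP1 (1.04) and the vacuolar mannosidase gene AMS1 (1.27) were nearest to HSP26. HSP42 had close neighbours in ULA1 (0.30), RTK1 (0.36) and the autophagy gene ATG8 (0.36). DDR2 was nearest to the trehalose synthase subunit gene TSL1 (1.01), the hexokinase gene HXK1 (1.07) and the cytochrome c isoform gene CYC7 (1.58).

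GRE1 was closest to the reticulon gene RTN2 (0.57), to GIP2 (0.76) and to MSC1 (0.87). RTN2 and GIP2 were well above background on 4 of 8 arrays and GRE1 on 5, so these distances are partly set by background. The neighbours of HSP30 were further off, with the polyamine exporter gene TPO2 at 1.98, TDA6 at 2.36 and RTA1 at 2.38. RTA1 was well above background on 5 of 8 arrays. TPO2 was at −2.42 for salt in wild type and at 3.50 for the deletion against wild type with salt. The neighbours of SIP18, YOR121C (0.87), PDC6 (0.89) and YDR230W (0.96), were well above background on only 2 or 3 of 8 arrays. SIP18 itself was well above background on 2 of 8 arrays, so distances to it are mostly set by background. Within the set HSP12 and HSP30 lay 13.5 apart, HSP26 and HSP42 lay 3.27 apart, and HSP12 and DDR2 lay 2.75 apart.

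Relatives of the 7 genes and other hydrophilins formed a list of 9: STF2, TMA10, ROQ1, YNL190W, NOP6, YRO2, MRH1, HOR7 and DDR48. Salt raised 5 of them and lowered 2 in wild type by limma (median 0.41), beside 31.2% and 25.7% of all tested genes. The deletion strain gave equal counts (median 0.59), beside 29.3% and 29.1%. TMA10 (5.55, SE 0.15) and its paralog STF2 (4.05, SE 0.20), a hydrophilin gene, had the largest salt responses in wild type. TMA10 read 0.252 and 0.219 in unstressed wild type, 12.2 and 9.96 after salt, 1.97 and 1.82 in the unstressed deletion strain and 16.8 and 14.1 there after salt. Its interaction of −2.53 (SE 0.22, limma adjusted p = 0.00705) passed, the 1 call in the list of 9, beside 1.00% of all tested genes. It did not pass for TMA10 under normexp (−2.25, limma adjusted p = 0.101). Quantile scaling, the authors' deposited values and the replicate block each gave 3 calls in the list, all lower in the deletion strain. Of all tested genes 40, 19 and 141 passed in these settings.

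Values of some relatives are given here outside the naming rule, chosen after they had been seen. MRH1, a membrane protein gene of the same family as HSP30, fell under salt in wild type (−2.35, SE 0.31) and in the deletion strain (−1.47, SE 0.31). Its relative YRO2 was at −0.14 (SE 0.53) and −0.39 (SE 0.53) and passed in neither. HOR7, the paralog of DDR2, rose by 3.23 (SE 0.22) in wild type and by 1.74 (SE 0.22) in the deletion strain. Before salt, 4 of 9 in the list were higher in the deletion strain (TMA10 3.01, STF2 2.28, HOR7 1.84, DDR48 0.72), beside 7.36% of all tested genes. With salt it was 2 of 9 (STF2 0.82, ROQ1 0.68), beside 5.77%. That count fell without wild-type salt replicate 2, deletion salt replicate 1 or deletion salt replicate 2, and rose without either unstressed deletion array. The number of all tested genes that were higher moved the same way in these fits.

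Of 9 regulator genes (HSF1, MSN2, MSN4, HOT1, SKO1, HOG1, GIS1, RIM15 and YAP1), 6 rose under salt in wild type and 7 in the deletion strain by limma, and 0 fell. Over all tested genes 31.2% and 29.3% rose, and 25.7% and 29.1% fell. GIS1, a zinc finger factor of nutrient limitation, rose by 1.92 (SE 0.21) and 2.68 (SE 0.21). MSN2 rose by 1.31 (SE 0.15) and 1.48 (SE 0.15). By limma 0 of the 9 passed in either strain comparison or in the interaction. Of all tested genes 13.7% passed without salt, 21.9% with salt and 1.00% in the interaction, so 0 of 9 genes says little. Without salt, 2 of 9 passed under the replicate block, beside 1395 of 5394 tested genes, and some passed when deletion unstressed replicate 2 was left out. With salt a regulator gene passed when either unstressed deletion array was left out, where more of all tested genes passed as well. Transcript levels of these genes do not measure the activity of their proteins.

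Of 15 genes for disaggregation and Hsp70 or Hsp90 chaperoning, salt raised 5 and lowered 6 in wild type (median 0.21). In the deletion strain 6 rose and 4 fell, with a median of 0.10. Of all tested genes, 31.2% rose and 25.7% fell in wild type, and 29.3% rose and 29.1% fell in the deletion strain. The stress-induced Hsp70 gene SSA4 rose by 2.51 (SE 0.22) in wild type and by 1.76 (SE 0.22) in the deletion strain, and the Hsp110 gene SSE2 by 2.29 (SE 0.23) and 1.54 (SE 0.23). Outside the naming rule, HSP104, the disaggregase that works after the small heat shock proteins, rose by 1.44 (SE 0.20) and 1.24 (SE 0.20), and the Hsp70 partner YDJ1 fell by 1.30 (SE 0.10) and 1.48 (SE 0.10). Between strains 1 was higher without salt (HSP78 0.75), and with salt 1 was higher (HSP78 0.83) and 1 lower (YDJ1 −0.38). The shares of the list that were higher lay near the 7.36% and 5.77% of all tested genes. With salt, 16.2% of all tested genes were lower. Without salt, the number that passed fell when wild-type unstressed replicate 1 was left out and rose when deletion unstressed replicate 1 was. Fewer of all tested genes passed in both fits. With salt, the call of YDJ1 was lost when any 1 wild-type array or any 1 salt-treated deletion array was left out, while the count of higher genes stayed the same. Fewer of all tested genes were lower in those fits. SSA and HSP82/HSC82 genes have near-identical copies whose probes may share signal.

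**Figure D5:**
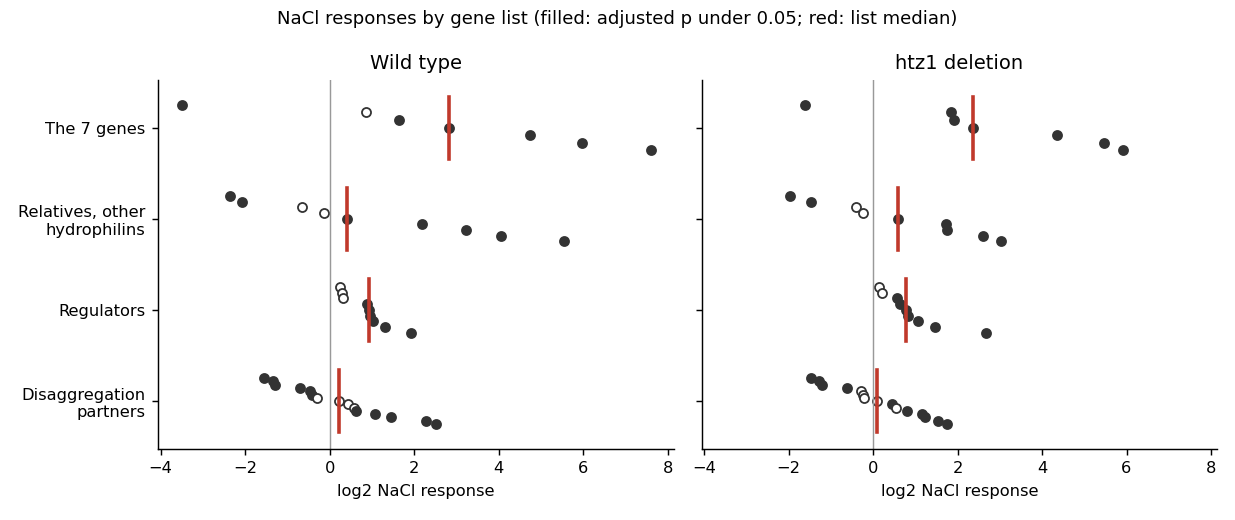
Log2 NaCl response (horizontal axis) of each gene in 4 lists, in wild type (left) and the htz1 deletion (right). Points are genes, filled where the adjusted p is under 0.05, and red bars are list medians, which in wild type are 2.82 for the 7 genes, 0.41 for relatives, 0.92 for regulators and 0.21 for disaggregation partners.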

How the data were processed

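Total RNA of 8 cultures was labelled with Cy3 and read on single-colour Agilent arrays. Per the file headers, spot intensity was extracted by the authors with Feature Extraction 10.7.3.1 from Agilent. Those headers record within-array detrending, no scaling between arrays, and the sacCer2 build. The authors' deposited table holds log2 values for 6187 probes. How it was normalized is not given in the sources used, and its column medians were 10.55 to 10.57. The submitters' processing notes name limma.

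Control spots and 86 outlier spots were left out. No spot was saturated. Log2 processed intensity minus the array's 75th percentile was averaged over the 2 spots of a probe, and a gene took its brightest probe. Each of the 7 genes had 1 probe. A gene was tested if both arrays of at least 1 group were well above background on every spot used. This left 5394 genes, of which 1 lacked a value on 1 array. The 75th percentile lay between 2740 and 4290 per array, and precision is limited by 2 arrays per group. Limma 3.58.1 in R 4.3.3 fitted 4 group means over 8 arrays (4 residual and 3.35 prior degrees of freedom), with 5 contrasts. The fit was tested on simulated data. A difference against a group not well above background on any array is a bound, taken on each dim array from the probe's own signal or, if higher, the lowest signal of any probe well above background.

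Names came from the R64 gene table, which matched 5748 of 6256 probes and gave no coordinates here because the builds differ. Sequences of promoters, proteins and probes were not used here, and the planned sequence description was not made. The 7 genes and the lists were chosen with earlier results of these data known. Besides the 7 genes, text names the 2 genes of each list with the largest salt response in wild type and the 2 with the largest interaction, among those that passed, and the 3 nearest profiles. The files hold no mean spot signal, so normexp (offset 50) used median signals. The 16 alternatives were normexp, quantile scaling, the authors' values, 2 filters, the mean over probes, the replicate block, raw median signals (added after seeing the data) and 8 fits without 1 array each.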

Additional observations from a re-analysis of the deposited data

Results flagged for a closer look

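By the interaction test 1 of the 7 genes (HSP12) and 1 of the 9 relatives (TMA10) had salt responses that differed between the strains. Of all tested genes 1.00% passed. For HSP12 the response of the deletion strain less that of wild type was −1.69 (SE 0.25, limma adjusted p = 0.0368), with the response at 5.91 and 7.60. For TMA10 it was −2.53 (SE 0.22, limma adjusted p = 0.00705), with the response at 3.02 and 5.55. Both genes were already higher in the unstressed deletion strain, by 2.13 and 3.01, values that share arrays with the interaction. TMA10 passed in all 8 fits without 1 array and HSP12 in 1 of them.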

How the results depend on the processing

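Over 16 alternatives the 7 genes gave 545 values in 5 comparisons: 502 kept direction and side of the threshold, 28 lost a call, 8 gained one (7 of SIP18 and 1 of HSP12) and 7 changed sign. For SIP18 these were −0.25 for salt in the deletion strain, 1.49 between strains without salt and −0.84 for the interaction under normexp, and without salt 0.03 in the authors' values and 0.25 in raw signals. For GRE1 without salt they were 0.65 under normexp and 0.018 without wild-type unstressed replicate 2 (range over arrays left out −0.11 to 0.018). Among named list genes, uncalled strain differences changed sign for GIS1 (0.26 under normexp; −0.63 to 0.063 over arrays left out), MSN2 (-0.11 to 0.18) and SSA4 (−0.089 to 0.60) without salt, and SSE2 with salt (0.023 under quantile scaling; −0.23 to 0.044). HSP12, HSP26, HSP42, HSP30, GRE1 and DDR2 passed for salt in both strains under every alternative that tested them, as did HSP12, HSP26 and DDR2 between the unstressed strains. HSP30, GRE1 and SIP18 are not tested when all arrays must be well above background, which left 4 genes called for salt in the deletion strain and 3 between strains with salt. The number of the 7 genes called ranged, leaving out 1 array each, over 6 to 7 (salt, wild type), 7 to 7 (salt, deletion, SIP18 included), 3 to 5 (strains without salt), 3 to 6 (strains with salt; 3 without wild-type or deletion salt replicate 2) and 0 to 2 (interaction). For the interaction it was 0 under normexp, with no filter and in raw signals. SIP18 is counted in the upper ends for salt in both strains, strains with salt and the interaction, but no call is read from it. All genes called ranged over 2284 to 3295, 2525 to 3096, 271 to 663, 438 to 1435 and 4 to 102.

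Under normexp 185 genes were called between strains without salt (162 higher and 23 lower, against 397 and 341), 324 with salt and 1 for the interaction. Under normexp 776 rose and 1405 fell for salt in the deletion strain, against 1582 and 1567, and the median over all genes moved by −0.19 there, by 0.15 between strains without salt and by −0.14 for the interaction. The interaction counted 19 genes in the authors' values (6 higher and 13 lower, against 6 and 48), 14 with no filter and 19 in raw signals. The cause of these changes was not tested, apart from the smaller number of genes or arrays where that is the alternative itself.

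Replicate numbers are shared by all groups, and the labels do not say what a number marks. Differences between replicates 1 and 2 correlated across genes between groups at r = 0.18 to 0.42. With the replicate block 1395 genes were called between strains without salt, 1829 with salt and 141 for the interaction. Of the 7 genes, the replicate block changed 1 call: SIP18 with salt passed (1.22, limma adjusted p = 0.0366). SIP18 was tested only through its level in the salt-treated deletion cultures, so no call is read from it.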
